A study of Mus musculus with 2 samples.

Results

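The genes of the CXCR3 and CXCR6 chemokine axes were read in single cells from mouse liver tumour tissue: the ligands Cxcl9, Cxcl10 and Cxcl16 and the receptors Cxcr3 and Cxcr6. They were chosen by their symbols, and all 5 were found among the 31053 features of both libraries. The cells came from the tumour region of livers of C57BL/6 mice, 17 months old, that had been on the CD-HFD diet for 15 months. There was 1 control library and 1 library from mice given a FABP5 inhibitor from month 13; both groups shared strain, diet and age. FABP5 is a protein that binds fatty acids inside cells. The number of mice in each library, the treatment of the control mice and the sequenced fraction of the Annexin V enrichment are not given in the sources used here. Because each group is 1 library, no test was made; each difference below is between these 2 libraries and has no replicate check.

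Chemokines are small secreted proteins that guide leukocytes through G protein-coupled receptors. CXCL9 and CXCL10 bind CXCR3, a receptor of activated T cells, NK cells and some dendritic cells, and both are induced by interferon-gamma, CXCL10 also by type I interferon. CXCL16 binds CXCR6 and is unusual in being made as a membrane protein that ADAM10 and ADAM17 can shed; in the liver, CXCR6 is known from resident lymphocytes and from PD-1 positive CD8 T cells of fatty livers.

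Cxcl9 and Cxcl10 are neighbours on chromosome 5 in GRCm38, both on the - strand, Cxcl9 from 92321347 to 92328079 and Cxcl10 from 92346638 to 92348889, with 18558 bases between them. Cxcl16 stands on chromosome 11 (- strand) between 70453983 and 70459984, Cxcr3 on chromosome X from 101731535 to 101734269 on the - strand, and Cxcr6 on chromosome 9 from 123806475 to 123811760 on the + strand. The 250 bases before the transcription start of the 2 interferon-induced neighbours are shown because the part of their UMIs held by T cell-like cells differed, as described below. They were taken from RefSeq on GRCm38.p6 and run 5′ to 3′ on the gene's strand, at chr5:92328080-92328329 for Cxcl9 and chr5:92348890-92349139 for Cxcl10. Capitals mark matches to 4 motifs searched on both strands: the interferon-stimulated response element, searched as GAAA, any 2 bases and GAAA; a STAT site, TTC, any 3 bases and GAA; an NF-kB-type site, GGGA, any 2 bases and TTCC; and the TATA box, TATAAA.
Cxcl9: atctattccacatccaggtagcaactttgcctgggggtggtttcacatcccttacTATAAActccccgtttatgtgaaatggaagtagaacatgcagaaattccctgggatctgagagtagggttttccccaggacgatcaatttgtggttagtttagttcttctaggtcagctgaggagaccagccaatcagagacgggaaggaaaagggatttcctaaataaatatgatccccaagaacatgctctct
Cxcl10: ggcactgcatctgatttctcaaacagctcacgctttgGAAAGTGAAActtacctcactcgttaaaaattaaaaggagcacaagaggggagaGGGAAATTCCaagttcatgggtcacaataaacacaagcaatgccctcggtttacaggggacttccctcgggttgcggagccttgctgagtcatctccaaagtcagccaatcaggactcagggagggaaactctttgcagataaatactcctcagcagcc
Counted back from the base before the start as position -1, Cxcl10 held GAAAGTGAAA at -213 to -204 and GGGAAATTCC at -159 to -150, and Cxcl9 held TATAAA at -195 to -190. Among 32851 RefSeq promoter windows of this length, 2.98% held the interferon-stimulated response element, 7.02% the STAT site, 1.21% the NF-kB-type site and 12.4% the TATA box on either strand. No match stood in the windows of Cxcr3 and Cxcr6. A match is a run of letters and not a shown binding site, and the lack of a match does not show that a site is absent. The TATAAA of Cxcl9 stands far from the start, and whether it acts as a TATA box was not tested. A link between these windows and the T cell-like shares was not tested either.

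The libraries held 53378693 (control) and 68074929 (inhibitor) unique molecular identifiers (UMIs, 1 per captured mRNA), of which 6461 and 8753 cells were kept, with medians of 3951 and 6278 UMIs per cell. Too many mitochondrial UMIs were found in 23.2% of control and 8.31% of inhibitor barcodes, and the libraries shared 29 barcode sequences, 18 of them among kept cells. Levels are given as CPM, the UMIs of a gene per 1000000 UMIs of all cells of a class, with exact Poisson 95% intervals, and differences as log2 ratios of CPM, inhibitor over control, with exact conditional binomial 95% intervals. All intervals cover counting error only. Cell classes were named from markers that do not include the 5 genes and are called "-like". Genes of proteins secreted by hepatocytes, a sign of free RNA, made up 0.192% of UMIs in control and 0.0152% in inhibitor T cell-like cells. B cell-like cells, taken as the reference for free ligand RNA, held 1 UMI each of Cxcl9, Cxcl10 and Cxcl16 in 600 control cells, and 0, 1 and 0 UMIs in 347 inhibitor cells. Neutrophil-like cells, the reference for receptor RNA, held 13 and 9 UMIs of Cxcr3 and 3 and 1 of Cxcr6 in 798 control and 547 inhibitor cells.

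The ligand UMIs came mostly from myeloid cells and the receptor UMIs mostly from T cells, and Cxcl10 had a further part in T cells. Monocyte-like or macrophage-like cells held 80.2% of control and 66.0% of inhibitor Cxcl9 UMIs. For Cxcl10 they held 61.9% and 64.1%, while T cell-like cells held 21.8% and 11.1%, neutrophil-like cells 5.07% and 2.03%, and hepatocyte-like cells 1.49% and 9.33%. For Cxcl16 the leading source differed between the libraries: monocyte-like or macrophage-like cells held 61.1% of the control UMIs and 21.3% of the inhibitor UMIs, and Kupffer-like cells 8.71% and 58.9%. T cell-like cells held 72.4% and 82.7% of Cxcr3 UMIs and 86.6% and 88.6% of Cxcr6 UMIs. NK or ILC1-like cells added 6.36% and 5.45% of Cxcr3 and 7.03% and 6.97% of Cxcr6.

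**Figure D1:**
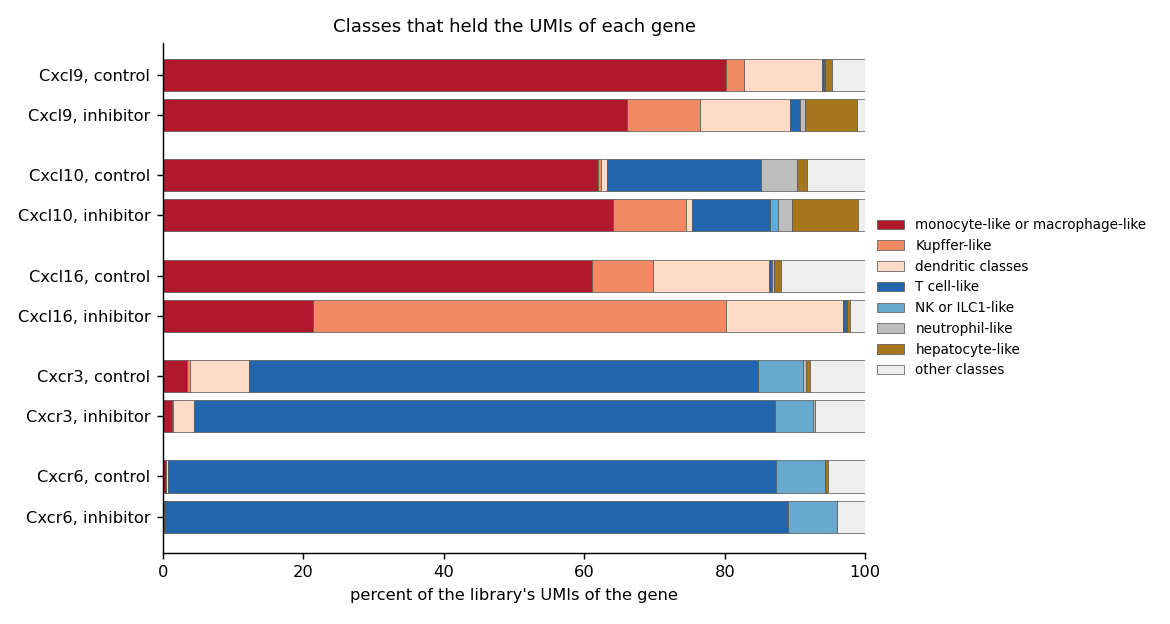
Horizontal bars give, for each gene and library, the percent of that library's UMIs of the gene held by each cell class, summing to 100. The Cxcl16 bars differ most: the Kupffer-like part is 8.71% in the control and 58.9% in the inhibitor library.

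Over all kept cells, 4 of the 5 genes were at least 1.5-fold lower in the inhibitor library, where 29.4% of the 14514 genes with at least 20 UMIs were lower by that much and 8.59% higher. Cxcl9 was at 161 CPM for control and 29.9 CPM for inhibitor cells (log2 ratio -2.43), Cxcl10 at 263 and 82.9 (-1.66), Cxcl16 at 155 and 41.4 (-1.90), and Cxcr6 at 136 and 55.2 (-1.30). Cxcr3, at 75.9 and 55.5 CPM, had a ratio of -0.45 and did not reach that size. These sums mix cell types whose shares differed: 18.6% of control cells and 47.2% of inhibitor cells were monocyte-like or macrophage-like, and 37.9% and 29.6% T cell-like.

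Among monocyte-like or macrophage-like cells, 3 of 3 ligands were at least 1.5-fold lower in the inhibitor library, where 20.8% of 11442 genes tested were lower by that much and 13.5% higher. Cxcl9 was at 477 CPM (463 to 491) in 1200 control cells and 33.5 CPM (31.6 to 35.6) in 4133 inhibitor cells, a log2 ratio of -3.83 (-3.93 to -3.74). Cxcl10 had 599 CPM (584 to 615) and 90.1 CPM (86.9 to 93.4), with a ratio of -2.73 (-2.80 to -2.67). Cxcl16 had 349 CPM (337 to 361) and 15.0 CPM (13.7 to 16.4), with a ratio of -4.54 (-4.68 to -4.40). Different clusters held the class in the 2 libraries. Of the control cells, 624 were in cluster 7, led by Ms4a7, Gpnmb and the complement C1q genes of tissue macrophages, and of the inhibitor cells 3280 were in cluster 0, led by F13a1, Chil3 and Vcan, genes of classical monocytes. The summed level of the macrophage markers, all 9 of them above 0 in both libraries, was 21562 CPM for control and 1822 CPM for inhibitor cells of the class, and that of the monocyte markers, all 10 above 0, 5160 and 10106 CPM. With the clusters of the class weighted as in the control library, the ratios were -1.08 for Cxcl9, -0.85 for Cxcl10 and -0.65 for Cxcl16, a setting chosen after seeing the data.

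Cxcl9, a CXCR3 ligand induced by interferon-gamma, was held by few cells with many UMIs each. In the control library 263 of 6461 cells had a Cxcl9 UMI and 21 cells held 50% of its 5811 UMIs; in the inhibitor library 149 of 8753 cells had one, 7 cells held 50% of 1670 UMIs, and a single cell held 361. The source of most control UMIs was cluster 18, a monocyte-like or macrophage-like cluster of 111 control and 62 inhibitor cells led by Cxcl9, Cxcl10, Ccl12 and the interferon-induced Ifit genes. It held 58.0% of the control library's Cxcl9 UMIs and 12.5% of those of the inhibitor library. Its level was 3021 CPM for control and 372 CPM for inhibitor cells, a log2 ratio of -3.02 (-3.23 to -2.82); 14.8% of 6094 genes tested in this cluster were at least 1.5-fold lower and 27.5% higher.

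With each cell thinned to 1000 UMIs, 51.4% (41.7 to 61.0) of the control and 8.06% (2.67 to 17.8) of the inhibitor cells of cluster 18 had a Cxcl9 UMI, against 70.3% and 14.5% unthinned. Median depths there were 9489 and 8702 UMIs, and in the B cell-like reference, at 3138.5 and 2674 UMIs, the thinned shares were 0.170% and 0 of 344 cells, which allows a share of up to 0.872%. The cells that the cluster held also differed: the macrophage markers summed to 14960 CPM in its control and 1301 CPM in its inhibitor cells, and the monocyte markers to 4533 and 12499 CPM. Their part in the Cxcl9 difference was not tested. Within cluster 7, the tissue macrophage-like cluster, Cxcl9 was at 194 CPM in 624 control cells and at 284 CPM in 57 inhibitor cells, 0.55 higher (0.29 to 0.80), but a single inhibitor cell held 79 of the 148 UMIs. In cluster 6, led by Plac8 and Ace, it was at 106 and 127 CPM, with 361 of the 464 inhibitor UMIs in 1 cell.

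Outside that class, the highest control level of Cxcl9 was in conventional dendritic 1-like cells, the cross-presenting dendritic subset, with 559 CPM in 71 control and 121 CPM in 58 inhibitor cells. There 217 of 507 control and 57 of 85 inhibitor UMIs stood in single cells. In Kupffer-like cells, marked by genes of resident liver macrophages, Cxcl9 was at 132 and 66.3 CPM (log2 ratio -0.99), where 19.1% of 8543 genes tested were at least 1.5-fold lower, but 118 of the 145 control UMIs stood in 1 cell, and without the top cell of each library the ratio was 0.90. In the order of the control levels, conventional dendritic 1-like, monocyte-like or macrophage-like and endothelial-like cells (227 CPM) were apart from each other by their intervals, and those of Kupffer-like and cycling-like cells (96.4 CPM) overlapped, as did those of hepatocyte-like (62.5 CPM) and conventional dendritic 2-like cells (50.9 CPM). In the inhibitor library, among classes of at least 20 cells, the intervals of the highest 2, conventional dendritic 1-like and hepatocyte-like cells at 121 and 118 CPM, overlapped. Smaller classes stood above them, 12 mature dendritic-like cells at 178 CPM (121 to 253), with 16 of 31 UMIs in 1 cell, and 2 endothelial-like cells at 305 CPM from 5 UMIs. Cluster 20 held 130 of the 134 inhibitor hepatocyte-like cells but 76 of their 125 Cxcl9 UMIs. T cell-like cells held Cxcl9 at 1.68 and 2.25 CPM, and NK or ILC1-like cells 7 UMIs in the control and 0 in the inhibitor library, which allows up to 3.51 CPM.

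Control macrophage-like cells with a Cxcl9 UMI were set beside the other cells of their cluster, as a description; such cells were deeper, with medians of 9693 and 8322 UMIs in cluster 7 (55 cells with and 569 without) and 10148.5 and 8918 UMIs in cluster 18 (78 and 33 cells). In cluster 7, Ccl5, a chemokine that attracts T cells, was at 1010 CPM in the cells with and 307 CPM in the cells without a Cxcl9 UMI, and Ccl12 at 160 and 30.9 CPM. Socs1, a feedback inhibitor of interferon signalling, was at 31.6 and 6.06 CPM. Cxcl2, a ligand of the neutrophil receptor CXCR2, was at 33.3 CPM with and 218 CPM without a Cxcl9 UMI. In cluster 7, 8.95% of 8984 genes tested were at least 1.5-fold higher in the cells with a UMI and 16.7% lower. In cluster 18, Ccl5 was at 2715 and 417 CPM and Ccl12 at 1224 and 271 CPM, where 12.3% of 4781 genes were higher by as much. There Socs1 (115 and 139 CPM) was within 1.5-fold, and Cxcl2 was at 89.8 and 21.4 CPM, the latter from 6 UMIs. These genes were chosen after their values were seen.

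Cxcl10 shared the interferon-led cluster 18 and the hepatocyte-like cells with Cxcl9 and was also read in T cell-like cells, where Cxcl9 had 16 control and 24 inhibitor UMIs, and in neutrophil-like cells, where Cxcl9 had 6 and 10. In cluster 18 it was at 4562 CPM for control and 2625 CPM for inhibitor cells, a log2 ratio of -0.80 (-0.88 to -0.71), and this cluster held 53.8% and 31.8% of each library's Cxcl10 UMIs. Thinned to 1000 UMIs, 69.4% (59.9 to 77.8) and 37.1% (25.2 to 50.3) of its cells had a Cxcl10 UMI. The macrophage and monocyte markers of cluster 18 differed between the libraries, as given above, and their part in the difference of Cxcl10 was not tested. In the tissue macrophage-like cluster 7 it was at 112 CPM for control and 15.4 CPM for inhibitor cells (-2.87; -4.09 to -1.88), the latter from 8 UMIs, where 14.8% of 9148 genes tested were at least 1.5-fold lower. Without cluster 18, a setting added after seeing the data, the ratio in the whole monocyte-like or macrophage-like class was -0.94 for Cxcl10, -2.43 for Cxcl9 and -4.39 for Cxcl16.

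In T cell-like cells, Cxcl10 was at 216 CPM (207 to 226) for control and 48.1 CPM (44.0 to 52.4) for inhibitor cells, a log2 ratio of -2.17 (-2.31 to -2.03), among 10.2% of 10992 genes that were at least 1.5-fold lower. Most of it was in cluster 10, T cells led by Ifit3, Ifit1 and other interferon-induced genes, which had 384 control and 51 inhibitor cells. In that cluster Cxcl10 was at 1033 CPM for control and 1415 CPM for inhibitor cells (0.45; 0.27 to 0.63). In the other T cell clusters the ratio was -1.80 (cluster 1), -2.27 (cluster 13, from 5 inhibitor UMIs), 0.47 (cluster 3), 0.93 (cluster 4) and 0.86 (cluster 9). The last 2 rest on 7 control UMIs each. The part of cell numbers in the difference of the class was not tested. Of the cells of cluster 10, 45.1% and 39.2% had a Cxcl10 UMI, and 29.0% and 22.9% after thinning, whereas 3 control and 13 inhibitor Cxcl9 UMIs were read there. The UMIs of Cxcl10 per UMI of Cxcl9 numbered 541 in the control cells of cluster 10, from 3 Cxcl9 UMIs, and 1.51 in those of cluster 18. In the inhibitor library they numbered 22.3, from 13 Cxcl9 UMIs, and 7.05, so the clusters lay much closer there. These ratios do not compare the genes' absolute levels. Macrophage markers summed to 301 CPM in the control cells of cluster 10, against 14960 CPM in cluster 18.

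Cxcl10 was at least 1.5-fold higher in the inhibitor library in 3 of 8 classes that had 100 or more cells on both sides. In Kupffer-like cells it was at 40.0 CPM (29.0 to 53.7) for control and 183 CPM (167 to 200) for inhibitor cells, a log2 ratio of 2.20 (1.75 to 2.67); 12.3% of 8543 genes tested there were higher by at least 1.5-fold. The share of cells with a UMI was 11.2% and 26.7%, and 4.27% (1.40 to 9.69) and 8.33% (4.74 to 13.4) after thinning, with intervals that overlap. Median depths were 7844 and 14137 UMIs. In hepatocyte-like cells it was at 163 CPM in 173 control and 408 CPM in 134 inhibitor cells (1.32; 1.04 to 1.61), where 32.2% of 6670 genes were higher by as much; with no doublets removed the ratio was 0.53, below 1.5-fold. Of the inhibitor cells, 59.7% had a UMI, and 29.8% (21.6 to 39.1) after thinning; of the control cells 4.05%, with 94 of 141 UMIs in 1 cell. Different clusters held this class, 130 of the inhibitor cells in cluster 20, led by Rgn, Oat and Fabp1, and 171 of the control cells in clusters 21 and 24. In NK or ILC1-like cells there were 3 control and 55 inhibitor UMIs, 37 of them in 1 cell, a log2 ratio of 3.98 (2.36 to 6.30), among 7.52% of genes that were higher.

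Neutrophil-like cells held Cxcl10 at 298 and 101 CPM (log2 ratio -1.55), where 24.5% of 5987 genes tested were at least 1.5-fold lower. With free RNA subtracted the ratio was -0.07. The B cell-like reference held Cxcl10 at only 0.458 and 0.949 CPM, too little to give that value. More than the reference level was therefore subtracted in that setting, and the amount is not given here. The part of free RNA in the neutrophil-like difference was not tested. Conventional dendritic 2-like cells held it at 31.9 and 17.1 CPM (-0.90), where 11% of 8737 were lower. In cholangiocyte-like cells, all 50 of them in the control library, 509 of 516 UMIs stood in 1 cell. In the order of the control levels the 6 highest classes were apart from each other by their intervals: monocyte-like or macrophage-like, cholangiocyte-like (413 CPM), neutrophil-like, T cell-like, hepatocyte-like and cycling-like cells (120 CPM). In the inhibitor library hepatocyte-like and Kupffer-like cells led, and the intervals of neutrophil-like (101 CPM), monocyte-like or macrophage-like (90.1 CPM) and erythroid-like cells (79.2 CPM) overlapped from each to the next. Plasmacytoid dendritic-like cells had 0 UMIs in the control library, which allows up to 2.99 CPM, and 1 in the inhibitor library.

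**Figure D2:**
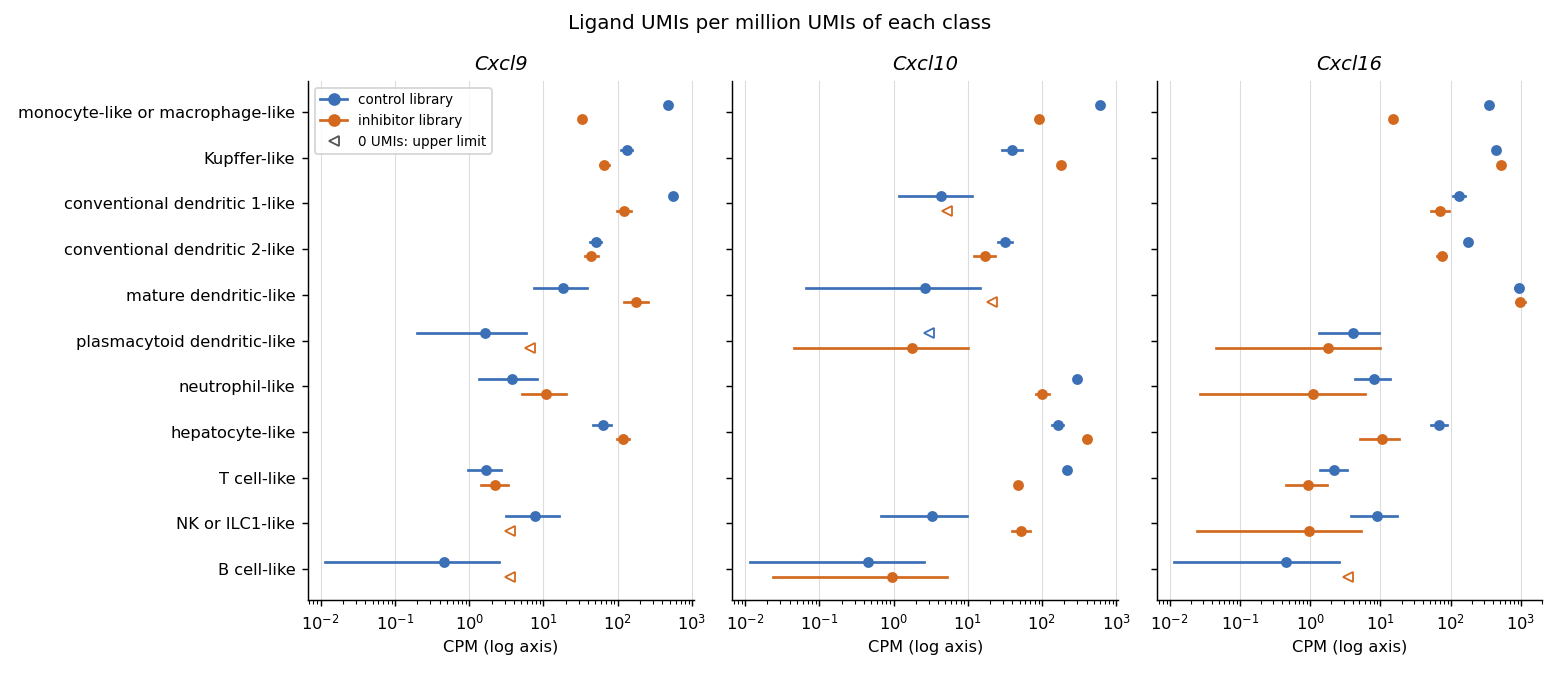
Points give CPM of each ligand on a log axis in 11 cell classes, with exact Poisson 95% intervals for counting error, blue for the control and orange for the inhibitor library; open triangles mark the upper limit of classes with 0 UMIs. The monocyte-like or macrophage-like points lie far apart for all 3 ligands, whereas the Cxcl16 points of Kupffer-like (441 and 517 CPM) and mature dendritic-like cells (928 and 979 CPM) lie close together.

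Cxcl16, the membrane-bound ligand of CXCR6, was spread over many macrophages and dendritic cells with few UMIs in each. In the control library 217 cells held 50% of its 5578 UMIs, and in the inhibitor library 82 cells held 50% of 2315. The highest levels were in mature dendritic-like cells, at 928 CPM (833 to 1030) in 46 control and 979 CPM (837 to 1137) in 12 inhibitor cells. Kupffer-like cells followed with 441 CPM (403 to 483) and 517 CPM (489 to 545), and the log2 ratio was 0.23 (0.08 to 0.38). In thinned Kupffer-like cells the share with a UMI was 32.5% (24.1 to 41.8) for control and 41.7% (34.4 to 49.2) for inhibitor cells, against 0 of 589 control B cell-like cells, which allows a share of up to 0.509%.

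The Cxcl16 levels of the tissue macrophage-like cluster 7 were close in the libraries, and those of monocyte-led clusters were lower in the inhibitor library. In cluster 7 they were 460 CPM (442 to 478) and 386 CPM (334 to 443), a ratio of -0.25 (-0.47 to -0.04), with 32.4% and 32.1% of cells having a UMI after thinning. In cluster 0, the classical monocyte-like cluster, where 20.7% of 10543 genes tested were at least 1.5-fold lower, Cxcl16 was at 32.2 and 5.25 CPM (-2.62; -3.24 to -1.94). In cluster 6, where 13.6% of 8683 genes were lower by as much, it was at 88.6 and 32.3 CPM (-1.46; -1.80 to -1.11). The interferon-led cluster 18 had 656 and 30.3 CPM (-4.44; -5.22 to -3.75), with 732 and 17 UMIs, beside the markers of macrophages and monocytes given above. The control library held 624 cells of the macrophage-like cluster 7, in which Cxcl16 was high, and the inhibitor library 57. The part of these numbers in the Cxcl16 difference of the whole class was not tested.

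Among dendritic cells, Cxcl16 was at 173 and 74.6 CPM in conventional dendritic 2-like cells (-1.22; -1.48 to -0.96), a ratio of -0.13 with the libraries clustered separately, and at 131 and 71.1 CPM in conventional dendritic 1-like cells (-0.88; -1.39 to -0.40), the latter with 119 and 50 UMIs. In cholangiocyte-like cells, which line bile ducts, it was at 194 CPM, with 78.0% of 50 cells having a UMI. In the order of the control levels, mature dendritic-like, Kupffer-like and monocyte-like or macrophage-like cells were apart from each other by their intervals, while cholangiocyte-like, cycling-like (191 CPM) and conventional dendritic 2-like cells overlapped from each to the next. In the inhibitor library, among classes of at least 20 cells, Kupffer-like cells stood apart from conventional dendritic 2-like and 1-like cells, whose intervals overlapped. Lymphocytes had little of it, T cell-like cells 2.20 and 0.94 CPM and NK or ILC1-like cells 8.86 and 0.95 CPM.

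**Figure D3:**
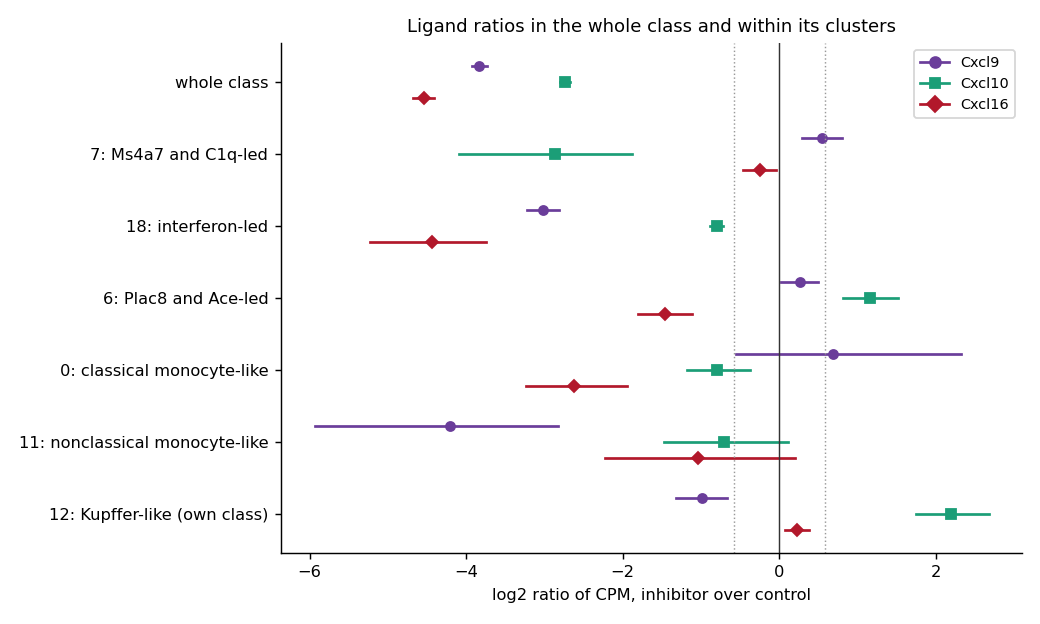
Points give the log2 ratio of CPM, inhibitor over control, of each ligand over all monocyte-like or macrophage-like cells, in their clusters and in Kupffer-like cells, with exact conditional binomial 95% intervals for counting error; dotted lines mark 1.5-fold. The Cxcl16 ratio is -4.54 in the whole class and -0.25 within cluster 7.

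Cxcr3, the receptor of CXCL9 and CXCL10, was close in the 2 libraries in its main carriers. In T cell-like cells it was at 207 CPM (198 to 217) in 2450 control cells and 240 CPM (231 to 250) in 2591 inhibitor cells, a log2 ratio of 0.21 (0.13 to 0.30), below 1.5-fold, where 4.1% of 10992 genes tested were higher by at least 1.5-fold. A Cxcr3 UMI was read in 47.4% and 55.5% of the cells at median depths of 3591.5 and 3715 UMIs, and in 18.2% (16.7 to 19.8) and 22.3% (20.7 to 24.0) after thinning. In neutrophil-like cells the thinned shares were 0.761% and 1.34%, at medians of 1951.5 and 1639 UMIs. In NK or ILC1-like cells Cxcr3 was at 193 and 161 CPM (-0.26; -0.57 to 0.05).

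Among the T cell clusters, Cxcr3 was highest in regulatory T-like cells (cluster 3), at 312 CPM (286 to 338) for control and 374 CPM (346 to 403) for inhibitor cells. A UMI of Foxp3, the defining factor of regulatory T cells, was read in 19.9% and 16.7% of this cluster's cells and one of Cd4 in 42.8% and 47.3%; whether the cells without a Foxp3 UMI are regulatory T cells was not tested. Cluster 1, led by Cd8b1, Cd8a and Gzmk, followed with 250 (232 to 269) and 293 CPM (273 to 313), and the interferon T-like cluster 10 with 220 CPM in both libraries. PD-1 positive CD8 T-like cells (cluster 9) were at 140 and 197 CPM and naive or memory T-like cells (cluster 4) at 139 and 165 CPM, levels whose intervals overlapped in the control library. The lowest were IL-17 gamma delta T-like cells (cluster 13), with 44.1 CPM for 268 control and 141 CPM for 28 inhibitor cells, the latter from 15 UMIs, a cluster in which 21.3% of 6029 genes tested were at least 1.5-fold higher. ILC1-like cells (cluster 14) held 237 and 211 CPM, and conventional NK-like cells (cluster 16) 57.8 and 115 CPM, the former from 13 UMIs, where 14% of 4378 genes were higher by as much.

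Cxcr3 was also read in dendritic cells that carry the receptor. Plasmacytoid dendritic-like cells, the main makers of type I interferon, held 119 CPM (101 to 140) and 94.6 CPM (70.9 to 124), and conventional dendritic 1-like cells 72.8 and 47.0 CPM. B cell-like cells had 38 and 31 UMIs, 17.4 and 29.4 CPM (0.76; 0.02 to 1.48), a class in which 6.03% of 7908 genes tested were at least 1.5-fold higher; without the top cell of each library the ratio was 0.49, as a mean of per-cell CPM 0.25 and with no doublets removed 0.51. In monocyte-like or macrophage-like cells it was at 9.62 and 1.22 CPM (-2.98; -3.56 to -2.44), where T cell markers, all 9 above 0, summed to 52.1 and 10.2 CPM; their part in that value was not tested. In the order of the control levels, T cell-like and NK or ILC1-like cells overlapped in their intervals and plasmacytoid dendritic-like cells stood below them; in the inhibitor library T cell-like cells stood apart from NK or ILC1-like cells, which overlapped with cycling-like cells (148 CPM).

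Cxcr6, the receptor of CXCL16, was lower in the inhibitor library in both lymphocyte classes that carry it. In T cell-like cells it was at 443 CPM (430 to 457) for control and 256 CPM (247 to 266) for inhibitor cells, a log2 ratio of -0.79 (-0.86 to -0.72), among the 10.2% of genes that were at least 1.5-fold lower. In NK or ILC1-like cells it had 381 CPM (342 to 424) and 205 CPM (178 to 234), with a ratio of -0.90 (-1.15 to -0.65), where 11% of 7022 genes tested were lower by as much. The share of T cell-like cells with a UMI was 53.8% and 43.7%, and 29.9% (28.1 to 31.8) and 20.1% (18.5 to 21.7) after thinning, against 0.127% and 0.192% in neutrophil-like cells. The levels of T cell-like and NK or ILC1-like cells were apart by their intervals in both libraries, and cycling-like cells came next at 114 and 105 CPM.

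Within the T cell and NK or ILC1 clusters the Cxcr6 differences were mostly smaller than in the classes. IL-17 gamma delta T-like cells had the highest level, 1035 CPM (977 to 1095) and 1150 CPM (955 to 1373), and 268 such cells were kept in the control library against 28 in the inhibitor library. PD-1 positive CD8 T-like cells came next with 880 CPM (820 to 942) in 226 control and 503 CPM (465 to 543) in 369 inhibitor cells, a ratio of -0.81 (-0.96 to -0.66), among 10.5% of 7115 genes tested that were at least 1.5-fold lower in that cluster. After thinning, 53.8% (47.0 to 60.4) and 36.8% (31.8 to 41.9) of these cells had a UMI. In the control cells of this cluster Pdcd1, which codes for PD-1, was at 405 CPM and Cd4 at 12 CPM, and in the inhibitor cells at 239 and 73.1 CPM, so the cluster's make-up also differed; its part in the Cxcr6 value was not tested.

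In cluster 1 Cxcr6 had 435 CPM (411 to 460) and 337 CPM (317 to 359), with a ratio of -0.37 (-0.49 to -0.25), and in ILC1-like cells at 503 and 412 CPM (-0.29; -0.55 to -0.04). Interferon T-like cells were at 262 and 254 CPM (-0.05; -0.49 to 0.37) and regulatory T-like cells at 193 and 161 CPM (-0.26; -0.49 to -0.03). Naive or memory T-like cells, led by Lef1 and Tcf7, were at 170 and 144 CPM (-0.24) and numbered 216 in the control and 750 in the inhibitor library. Conventional NK-like cells were low in both libraries, at 13.3 CPM from 3 UMIs in 68 control cells and 14.6 CPM from 8 UMIs in 156 inhibitor cells, against 1.86 and 1.08 CPM in the neutrophil-like reference. With the T cell clusters weighted as in the control library, the ratio of the class was -0.22, against -0.79, a setting chosen after seeing the data.

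**Figure D4:**
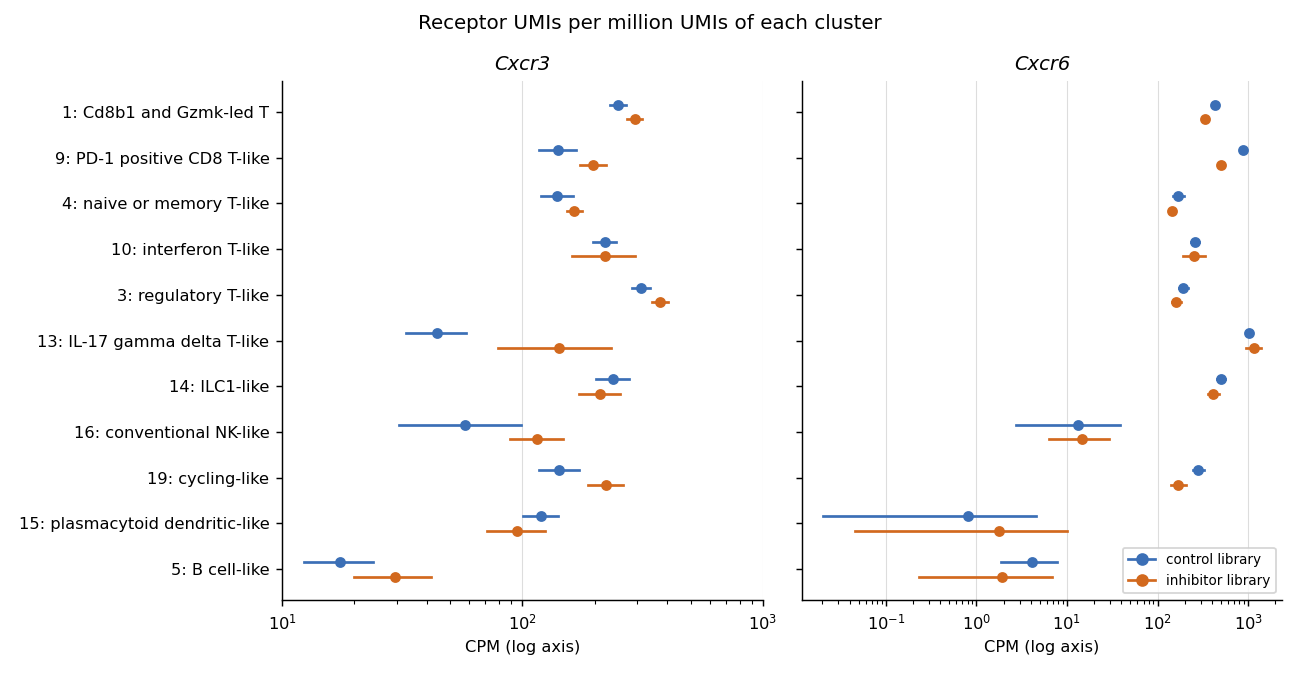
Points give CPM of each receptor on log axes in 11 clusters, with exact Poisson 95% intervals for counting error, blue for the control and orange for the inhibitor library. Among the T, NK and ILC1 clusters of the control library Cxcr6 spans from 1035 CPM in IL-17 gamma delta T-like cells to 13.3 CPM in conventional NK-like cells, while Cxcr3 is highest in regulatory T-like cells in both libraries.

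Over T cell-like cells, a Cxcr3 UMI was about as frequent in cells with as in cells without a Cxcr6 UMI. A receptor can go unread in a thinned cell, so cells with Cxcr3 or Cxcr6 alone may still carry the other. After thinning to 1000 UMIs, 5.29% of control T cell-like cells and 4.28% of those of the inhibitor library had both, 12.9% and 18% Cxcr3 alone, and 24.7% and 15.8% Cxcr6 alone. Among control T cell-like cells with a Cxcr6 UMI, 17.6% had a Cxcr3 UMI, and among those without, 18.4%. In the inhibitor library the shares were 21.3% and 22.5%. Single clusters went both ways. The control shares were 24.1% and 19.3% in cluster 1, 35.5% and 25.1% in cluster 3 and 25.9% and 16.4% in cluster 10. They were 4.40% and 2.83% in cluster 13, but 12% and 13.8% in cluster 4 and 7.44% and 14.4% in cluster 9. Inhibitor shares were 24.5% and 24.3% in cluster 1, 22.2% and 17.9% in cluster 10 and 18.4% and 14.5% in cluster 4. They were 29.8% and 33.1% in cluster 3, 17.0% and 19.4% in cluster 9 and 6.25% and 25% in cluster 13. Of the groups with both receptors, Cxcr3 alone or Cxcr6 alone, Cxcr3 alone was the largest in regulatory T-like cells (22.1% and 29.5% of cells). In PD-1 positive CD8 T-like cells it was Cxcr6 alone (49.8% and 30.5%). The ligands were read together in cluster 18, where 36.9% of the 111 control cells had UMIs of both Cxcl9 and Cxcl10 after thinning, and 28.8% of both Cxcl9 and Cxcl16; of the 62 inhibitor cells 4.84% had both CXCR3 ligands.

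Cells with a Cxcr6 UMI were compared with the other cells of cluster 1 in each library, as a description, since a cell with deeper counts is likelier to show a UMI. The 487 control cells with a UMI had a median of 3425 UMIs, against 3377 in 322 cells without, and the 424 inhibitor cells 3606.5 against 2896.5. Genes of recirculation were lower in cells with a UMI: in the control library 6 of 7 tested were at least 1.5-fold lower, against 7.03% of 7834 genes, and in the inhibitor library 3 of 6, against 8.74% of 7664 genes. The list medians were -1.24 and -0.54 (log2, cells with over cells without), beside 0.02 and -0.02 over all genes tested. S1pr1, the receptor for exit from tissue, was at 91.3 CPM in cells without and 38.4 CPM in cells with a Cxcr6 UMI in the control library and at 114 and 69.9 CPM in the inhibitor library, and Tcf7, a factor of naive and memory T cells, at 169 and 82.8 and at 109 and 55.9 CPM.

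Genes that were higher in both libraries in the cells with a Cxcr6 UMI had other roles. Itga1, an integrin of tissue-resident lymphocytes, was at 25.7 CPM without and 94.5 CPM with a UMI in the control library and at 25.2 and 83.9 CPM in the inhibitor library. Gzmb, a granule protease of cytotoxic cells, was at 105 and 510 CPM and at 379 and 835 CPM, and Rgs1, a brake on G protein signalling from chemokine receptors, at 456 and 910 CPM and at 407 and 649 CPM. Eomes, a T-box factor, was lower in the cells with a UMI, at 228 and 113 CPM and at 201 and 74.8 CPM. Of the PD-1 and effector list, 3 of 10 genes were higher and 0 lower in the control library (9.74% of genes tested were higher), and 2 of 10 higher and 2 lower in the inhibitor library (7.22% higher). Pdcd1 went opposite ways, at 53.2 and 96.2 CPM in the control and 68.8 and 48.7 CPM in the inhibitor library. The same comparison by a Cxcr3 UMI gave, over all 8 lists, 1 gene at least 1.5-fold higher in both libraries, Il15ra, and 2 lower, Ccl3 and Cxcr5. Of all genes tested, 7.14% were higher by as much and 6.55% lower in the control library, and 6.69% and 6.59% in the inhibitor library. The intervals of Il15ra and Cxcr5 included no change in both libraries.

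**Figure D5:**
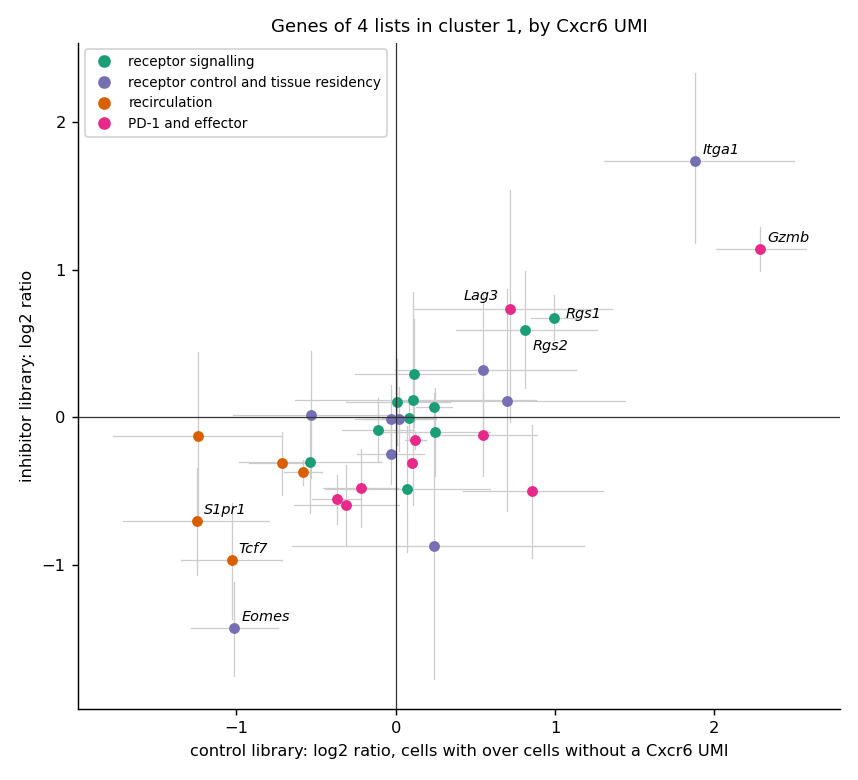
Each point is a gene of 4 lists in cluster 1 (list genes not reported here are not drawn), with the log2 ratio of CPM between cells with and cells without a Cxcr6 UMI in the control library on the x axis and in the inhibitor library on the y axis; grey lines are 95% intervals for counting error. Named genes are at least 1.5-fold apart in both libraries, with S1pr1 at -1.25 and -0.70 and Itga1 at 1.88 and 1.73.

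Other genes of the axes were read in 8 lists. Of the ligand control list (the interferon-gamma pathway and NF-kB), 0 of 11 genes tested were at least 1.5-fold higher and 4 lower in monocyte-like or macrophage-like cells, with a median log2 ratio of -0.39 beside -0.00 over all genes tested, of which 13.5% were higher and 20.8% lower. Among them were Socs1, a feedback inhibitor (20.8 and 8.12 CPM), Irf8 (304 and 168 CPM) and Tnf (21.4 and 12.2 CPM). In T cell-like cells 1 of 12 was lower and 0 higher (median -0.11 beside -0.05), where 10.2% of all genes tested were lower and 4.1% higher, while Ifng, the gene of interferon-gamma, was at 110 and 159 CPM there (0.53; 0.42 to 0.65). The sheddases of CXCL16 were close between libraries in monocyte-like or macrophage-like cells, Adam10 at 62.5 and 57.0 CPM and Adam17 at 71.9 and 66.1 CPM.

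Of the other chemokine ligands, 5 of 17 tested were at least 1.5-fold higher and 11 lower in monocyte-like or macrophage-like cells, with a median of -2.13 beside -0.00, against 13.5% and 20.8% of all genes tested. Ccl5 was at 500 and 27.8 CPM and Ccl12, a ligand of CCR2, at 138 and 3.56 CPM. In T cell-like cells the recirculation list had 3 of 7 genes higher and 0 lower, with a median of 0.44 beside -0.05 over all genes tested, of which 4.1% were higher and 10.2% lower; both shares and this median also stand beside each list that follows. Among them were Klf2, a factor that keeps T cells circulating, at 876 and 1547 CPM, and Ccr7 at 52.6 and 88.4 CPM. The list of receptor control and tissue residency had 0 of 13 higher and 3 lower (median -0.30), led by Itgae, an integrin that binds epithelial cadherin, at 24.2 and 5.53 CPM. Of receptor signalling genes 0 of 12 were higher and 2 lower (median 0.03), led by Rgs1 at 850 and 531 CPM. Of the PD-1 and effector list 1 of 11 was higher and 2 lower (median -0.06), with Gzmb at 262 and 426 CPM and Pdcd1 at 91.2 and 53.3 CPM. Of the other chemokine receptors 3 of 13 were higher and 5 lower (median -0.10), with Ccr6 at 26.8 and 2.44 CPM. Ccr6 is among the top genes of IL-17 gamma delta T-like cells, which Il17a and Trdc lead and of which the inhibitor library held 28. Their part in the Ccr6 value was not tested.

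Genes whose pattern over clusters was most like that of each member were ranked by Pearson r of log2(CPM + 10), over 30 clusters in the control and 23 in the inhibitor library with at least 20 cells; the clusters of a library share its depth and free RNA, so the values are descriptions. For Cxcl9 they were Phf11d (r 0.82 and 0.82), Parp12 (0.80 and 0.81), Slamf8, Pnp and Acvrl1. Cxcl10 was followed by the interferon-induced Ifit3 (0.84 and 0.82), Ifit2 (0.79 and 0.79), Ifit1, Cmpk2 and Ifit3b. The nearest to Cxcl16 were Cttnbp2nl (0.91 and 0.96), Shtn1 (0.84 and 0.82), Mmp14, Pdlim4 and Myof. Cd27 (0.88 and 0.90), Sept1 (0.87 and 0.96), Zbtb25, Rasal3 and Fam189b stood nearest to Cxcr3. For Cxcr6 they were the T cell genes Zap70 (0.95 and 0.95), Bcl11b (0.94 and 0.94), Thy1, Camk4 and Cd3g.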

How the data were processed

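The deposited files hold raw UMI counts per gene and barcode for 1 control and 1 inhibitor library, written by Cell Ranger 5.0.1 per the file headers. The submitters' processing notes also name R 3.0, Seurat 3 and mm9, while 99.6% of the gene IDs are in GENCODE M21 for GRCm38. Coordinates given here are those of GRCm38. The 5 genes and all lists were chosen with earlier results of these data known. Cells had at least 300 genes, at least 500 UMIs and at most 25% mitochondrial UMIs, and doublets were removed by simulated neighbours at 0.8% per 1000 barcodes.

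Both libraries were clustered together without the 5 genes (2000 variable genes, 30 principal components, 20 neighbours, Leiden resolution 1), giving 32 clusters. One cluster holding markers of both conventional dendritic subsets was split once, after the clusters were seen. A cluster was named from at least 3 markers that were at least 2-fold higher there and read in at least 10% of its cells. A ratio of 1.5-fold with at least 20 UMIs over both libraries is called higher or lower, and 8 classes had at least 100 cells in each library. In ratios, 3 UMIs stood for a gene with 0 UMIs in 1 library. The limit given for a level of 0 CPM is the upper bound of its exact Poisson 95% interval. Shares of cells were also given after thinning each cell to 1000 UMIs, with exact Clopper-Pearson 95% intervals. The limit given for a thinned share of 0 is instead 3 divided by the number of thinned cells.

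The 5 genes were described in every class. Of each of the 8 lists (96 genes), up to 4 called genes with the interval bound farthest from no change were to be named, and 5 genes for likeness, by the smaller r of the libraries; Adam10, Adam17 and Ifng were added after their values were seen. Some genes that the lists hold and count are not reported here by name or value. With 1 library per group no test was made. The intervals were tested on simulated Poisson counts only. That simulation had no spread between cells, so it does not cover genes whose UMIs stand in few cells. Python 3.11.15, numpy 2.4.6, scipy 1.17.1, pandas 2.3.3, scikit-learn 1.9.0, leidenalg 0.10.2, igraph 0.11.9 and matplotlib 3.10.9 were used. Results were recomputed under 11 other settings and 3 more chosen after seeing the data.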

Additional observations from a re-analysis of the deposited data

Results flagged for a closer look

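For each of these results the same gene was at least 1.5-fold higher in the inhibitor library in some classes and at least 1.5-fold lower in others. The differences between classes were not tested, since each group is 1 library. For Cxcl9 the log2 ratio was 0.92 in hepatocyte-like cells, against -0.99 in Kupffer-like and -3.83 in monocyte-like or macrophage-like cells. A single control cell held 118 of the 145 Kupffer-like UMIs. The Cxcl9 direction turned under other settings in hepatocyte-like and Kupffer-like cells, as given below. For Cxcl10 it was 2.20 in Kupffer-like, 3.98 in NK or ILC1-like and 1.32 in hepatocyte-like cells, against -2.17 in T cell-like, -0.90 in conventional dendritic 2-like, -2.73 in monocyte-like or macrophage-like and -1.55 in neutrophil-like cells. Of the 55 Cxcl10 UMIs of inhibitor NK or ILC1-like cells, 37 were in 1 cell. For Cxcr3 it was 0.76 in B cell-like cells, from 38 and 31 UMIs, against -2.98 in monocyte-like or macrophage-like cells, from 94 and 40 UMIs.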

How the results depend on the processing

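Ratios are log2 of CPM, inhibitor over control, under 11 other settings and 3 more chosen after seeing the data; the cause of a shift was not tested. In monocyte-like or macrophage-like cells Cxcl9, Cxcl10 and Cxcl16 were lower in the inhibitor library under each of the 14. Cxcl9, at -3.83, was -4.50 with the doublet share doubled, -4.34 without the top cell of each library, -2.43 without the interferon-led cluster and -1.08 with clusters weighted as in the control library. Cxcl10, at -2.73, was -2.84 with no doublets removed, -3.36 with the libraries clustered separately, -2.61 as a mean of per-cell CPM, -2.42 with free RNA subtracted, -2.81 without the top cells, -0.94 without the interferon-led cluster and -0.85 weighted. Cxcl16, at -4.54, was -4.79 with the doublet share doubled, -3.94 at resolution 2, -3.95 with the 5 genes among the variable genes, -2.71 clustered separately, where 0 inhibitor cells were named Kupffer-like, -10.28 with free RNA subtracted, -4.39 without the interferon-led cluster and -0.65 weighted. The B cell-like reference for free ligand RNA held Cxcl10 at 0.458 and 0.949 CPM and Cxcl16 at 0.458 and 0 CPM. These levels are too low to give the ratios with free RNA subtracted. More than them was subtracted in that setting, so its ratios do not show the effect of the reference levels. Cxcr6 in T cell-like cells, at -0.79, was -0.90 without the interferon T-like cluster 10 and -0.22 weighted, and Cxcr3 there ran from 0.18 to 0.28.

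Among results at least 1.5-fold apart, direction turned for Cxcl9 in Kupffer-like cells (1.34 with no doublets removed, 0.45 with the share doubled, 1.09 at resolution 2, 1.05 with the 5 genes allowed, 0.90 without the top cells), for Cxcl9 in hepatocyte-like cells (-0.19 with the share doubled), for Cxcr3 in conventional dendritic 2-like cells (0.73 with no doublets removed), and in hepatocyte-like cells for Cxcl16 (0.51 with no mitochondrial limit) and Cxcr6 (1.18 with no mitochondrial limit, 1.45 with no doublets removed). Among smaller ratios it turned for Cxcl9 in T cell-like cells (0.43, below 0 in 6 of 12 settings and down to -1.11) and conventional dendritic 2-like cells (-0.21, up to 0.19), and for Cxcr3 in neutrophil-like cells (0.27, down to -0.44). Cxcl10 in neutrophil-like cells ran from -2.27 to -0.07, Cxcl16 in conventional dendritic 2-like cells from -1.42 to -0.13 and Cxcr6 in monocyte-like or macrophage-like cells, at -3.75, to -0.17. Cxcl10 in Kupffer-like cells ran from 1.12 to 3.71. Some alternatives gave no value in classes left with too few cells. No paired analysis was possible because each group has 1 library. Few UMIs limit some results: Cxcr6 in hepatocyte-like cells rests on 20 and 1, with an interval of -9.99 to -1.97, and Cxcr3 in conventional dendritic 2-like cells on 17 and 6 (-2.94 to 0.10). The spread between mice was not measured.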
